A study of Mus musculus with 6 samples.

Results

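The genes described here take part in holding mouse oocytes in prophase of the first meiotic division through cyclic AMP (cAMP). They are 10 genes chosen by symbol, *Gpr3*, *Gpr12*, *Gnas*, *Gnai2*, *Gnai3*, *Adcy3*, *Adcy9*, *Pde3a*, *Prkar1a* and *Prkaca*, of the 15707 genes in the deposited table, and all 10 were listed. The study compared the polyadenylated RNA of *Btg4*-depleted and control oocytes at early metaphase II, with 3 libraries of 50 oocytes in each group, given by the study as biological repetitions. *Btg4*-depleted oocytes had been injected with siRNAs against *Btg4*, which encodes a partner of the CCR4–NOT deadenylase, and control oocytes with control siRNAs. All oocytes came from (C57BL x CBA) F1 females 10 to 12 days old, with ovaries taken from 2 to 5 animals. Follicles spent 8 to 10 days in culture, and the isolated oocytes were then matured in vitro. The injected siRNA lowers the mRNA and is not a deletion of the gene.

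A fully grown oocyte stays in prophase as long as its cAMP is high. The orphan receptor GPR3 signals without a known ligand through the stimulatory G protein to adenylyl cyclase, which makes cAMP, and the phosphodiesterase PDE3A degrades it. cAMP releases the catalytic subunits of protein kinase A (PKA) from its regulatory subunits, and PKA keeps CDK1 inactive through WEE2 and CDC25B. The oocytes sequenced here had already left this arrest, so the values are those of transcripts that remained at metaphase II.

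Levels are FPKM, which divide the fragments of a gene by its transcript length and by the depth of the library, so that genes can be compared per length. The authors' table gives the mean of the 3 libraries of a group and no single libraries, so no value below has an SD, no difference between groups could be tested, and whether single libraries overlap cannot be seen. Log2 ratios are *Btg4*-depleted over control, taken of FPKM + 1 after scaling by a trimmed mean of ratios (TMM), which added 0.16 to the log2 ratios before the pseudocount. A gene counts as measured at a mean FPKM of at least 1 over both groups, and as higher or lower when its group means differed at least 2-fold on this scale. A difference in FPKM here can come from the amount of an RNA or from its poly(A) tail, on which the cDNA was primed, and these cannot be told apart.

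From the authors' mean normalized counts of 320 genes over all 6 libraries, a common depth of 7.82 M fragments was estimated. Single-gene estimates ran from 6.92 to 8.12 M between their 5th and 95th percentile. At this depth 1 FPKM of a transcript of 2 kb is about 15.6 fragments. The depth of single libraries or groups is not known, and the fragments per library given below assume it to be equal. *Btg4* itself had a mean FPKM of 39.3 in *Btg4*-depleted oocytes, against 1766 in control oocytes, a log2 ratio of -5.30. All 12 oocyte markers were measured, *Zp1*, *Zp2*, *Zp3*, *Gdf9*, *Bmp15*, *Figla*, *Oosp1*, *Ooep*, *Nlrp5*, *Dppa3*, *Mos* and *Kit*, at 17.6 to 4440 FPKM in *Btg4*-depleted oocytes and 6.08 to 5445 FPKM in control oocytes. Of 20 granulosa and cumulus markers 12 were listed and 7 were measured. The other 8, among them *Amh*, *Fshr* and *Foxl2*, were not listed under their symbols, so no value can be given for them. The 12 had a summed FPKM of 42.5 in *Btg4*-depleted oocytes and 38.9 in control oocytes. Of the 7 measured, 3 were at least 2-fold higher (*Gja1*, *Inhba* and *Hsd3b1*) and 1 lower (*Cyp19a1*), with a median log2 ratio of 0.65. The aromatase *Cyp19a1* had 5.87 FPKM in *Btg4*-depleted oocytes and 14.8 in control oocytes, and the gap junction gene *Gja1* 4.33 FPKM in *Btg4*-depleted oocytes and 0.18 FPKM in control oocytes. The other 5 measured (*Inha*, *Inhba*, *Hsd3b1*, *Nr5a2* and *Kitl*) had 0.907 to 12.0 FPKM in *Btg4*-depleted oocytes and 2.15 to 8.20 FPKM in control oocytes. Of the theca and stroma markers only *Dcn* was measured, and the list summed to 1.02 FPKM in *Btg4*-depleted oocytes and 1.48 FPKM in control oocytes. Of the blood and immune markers only *Cd68* was listed, at 0.527 FPKM in *Btg4*-depleted oocytes and 1.00 FPKM in control oocytes. The part of RNA from such cells in the values below was not tested.

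Of the 10 genes 8 were measured, and the receptor *Gpr12* and the cyclase *Adcy3* were below the filter. Among the 8, 7 had a lower group mean in *Btg4*-depleted oocytes and 1, the PKA regulatory subunit *Prkar1a*, a higher one. Group means are unscaled, and without scaling the median log2 ratio of all measured genes was -0.15. After scaling, the same 7 had a log2 ratio below the median of all measured genes. With the length trend removed *Adcy9*, 1 of the 7, stood at 0.12. At least 2-fold, 2 of 8 were lower, the inhibitory G protein subunit *Gnai3* and the PKA catalytic subunit *Prkaca*, and 0 were higher. Over the 10012 measured genes, 11.7% were at least 2-fold lower and 19.8% at least 2-fold higher. The median log2 ratio of the 8 was -0.71, against -0.02 over all measured genes. With 8 genes, 25% lower rests on 2 of them, and no test was made of these shares or medians.

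**Figure D1:**
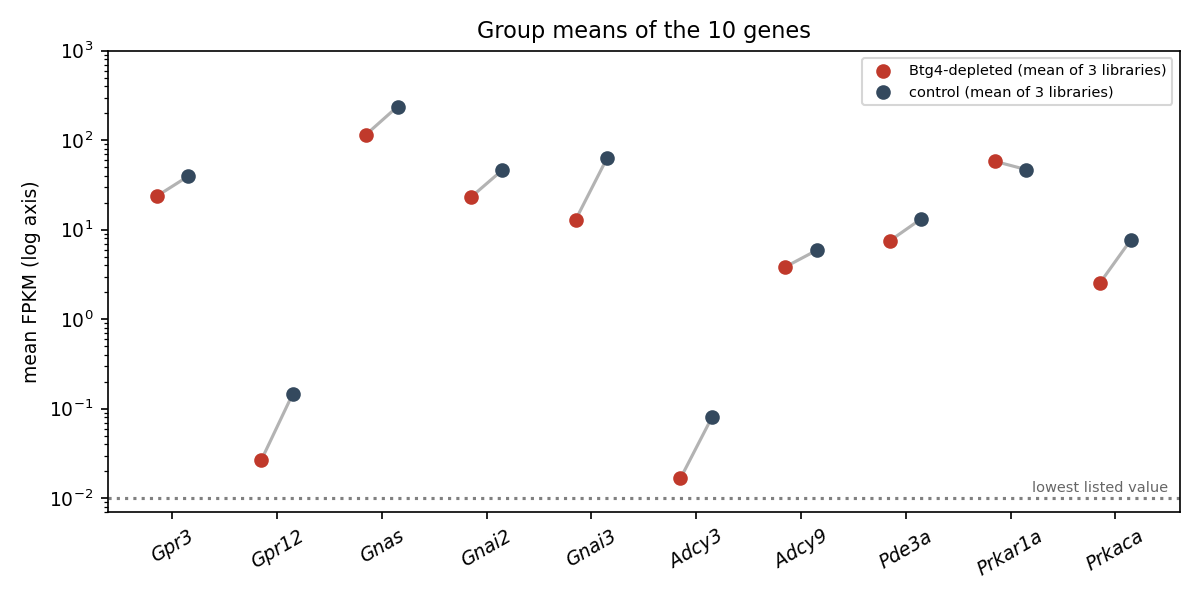
Mean FPKM (log axis) of each of the 10 genes, with the *Btg4*-depleted group at the left and the control group at the right of each pair. Points are means of 3 libraries as deposited, so there are no error bars, and the dotted line is the lowest listed value, 0.01. *Prkar1a* is the only gene whose *Btg4*-depleted mean lies above its control mean, and *Gpr12* and *Adcy3* lie far below the other 8 in both groups.

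The order of levels differed somewhat between the groups. In *Btg4*-depleted oocytes it ran *Gnas*, *Prkar1a*, *Gpr3*, *Gnai2*, *Gnai3*, *Pde3a*, *Adcy9*, *Prkaca*, *Gpr12*, *Adcy3*, from 115.8 FPKM at the top to 0.017 FPKM at the bottom. In control oocytes it ran *Gnas*, *Gnai3*, *Prkar1a*, *Gnai2*, *Gpr3*, *Pde3a*, *Prkaca*, *Adcy9*, *Gpr12*, *Adcy3*, from 238.0 to 0.080 FPKM. *Gnai3* had place 5 in *Btg4*-depleted oocytes and place 2 in control oocytes. Without a spread, neighbours such as *Gpr3* and *Gnai2* in *Btg4*-depleted oocytes (23.65 and 23.1 FPKM), or *Prkar1a* and *Gnai2* in control oocytes (47.0 and 46.4 FPKM), cannot be ordered.

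*Gpr3* was the receptor with a clear signal. Its mean FPKM was 23.65 in *Btg4*-depleted oocytes and 39.5 in control oocytes, a log2 ratio of -0.56, and 29.8% of all measured genes had a ratio at or below it. At the estimated depth these levels correspond to about 400 fragments per library in *Btg4*-depleted oocytes and 667 in control oocytes. *Gpr12*, a related receptor that also raises cAMP, was listed at 0.027 FPKM in *Btg4*-depleted oocytes and 0.147 FPKM in control oocytes. These are about 0.47 fragments per library in *Btg4*-depleted oocytes and 2.61 in control oocytes, so no fold is given. No gene was listed at 0, and 0.01, the lowest value, was held by 1651 genes in *Btg4*-depleted oocytes and 694 genes in control oocytes. The coding sequences of both receptors were 62.8% identical over 990 aligned bases. The longest run shared by their whole reference transcripts was 14 bases, well below the length of a read. The *Gpr3* transcript compared has 2518 bases, against a deposited length of 2159.

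Among the G protein subunits, *Gnas*, which encodes the stimulatory alpha subunit that activates adenylyl cyclase, was the most abundant of the 10 genes in both groups. Its mean FPKM was 115.8 in *Btg4*-depleted oocytes and 238.0 in control oocytes, a log2 ratio of -0.87. The *Gnas* locus makes several transcripts that share exons, and an antisense RNA, and the library kit does not mark strand, so this value is that of the locus as counted. *Gnai2*, which encodes an inhibitory alpha subunit, had 23.1 FPKM in *Btg4*-depleted oocytes and 46.4 FPKM in control oocytes, a log2 ratio of -0.82.

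*Gnai3*, which encodes a second inhibitory alpha subunit, had the lowest log2 ratio of the 8 measured genes. Its mean FPKM was 12.9 in *Btg4*-depleted oocytes, against 63.2 in control oocytes, 20.5% of the control level before scaling. The log2 ratio was -2.05, and 0.19% of all measured genes had a ratio at or below it. The estimated fragments were 334 per library in *Btg4*-depleted oocytes and 1630 in control oocytes. Within a group, where scaling between groups does not enter, the *Gnai3* to *Gnai2* ratio was 0.56 in *Btg4*-depleted oocytes and 1.36 in control oocytes. *Gnai3* was thus the lower of the pair in *Btg4*-depleted oocytes and the higher in control oocytes. The coding sequences of *Gnai2* and *Gnai3* were 73.9% identical over 1065 aligned bases, and the longest run shared by their whole reference transcripts was 22 bases. *Gnas* stood at 3.21 times the sum of *Gnai2* and *Gnai3* in *Btg4*-depleted oocytes and 2.17 times in control oocytes. This sum leaves out *Gnai1*, a further inhibitory alpha subunit, named after its values were seen. It had 10.8 FPKM in *Btg4*-depleted oocytes and 17.4 FPKM in control oocytes.

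Of the adenylyl cyclases, which make cAMP from ATP, *Adcy9* had a mean FPKM of 3.84 in *Btg4*-depleted oocytes and 5.89 in control oocytes, a log2 ratio of -0.38. The direction of this value depends on transcript length: at 7632 bases *Adcy9* was the longest of the 10 transcripts, and with the trend of the ratio on length removed its log2 ratio was 0.12. *Adcy3* was listed at 0.017 FPKM in *Btg4*-depleted oocytes and 0.080 FPKM in control oocytes. These are about 0.57 fragments per library in *Btg4*-depleted oocytes and 2.72 in control oocytes, so no fold is given. The coding sequences of these 2 cyclases were 58.3% identical over 2844 aligned bases, and the longest run shared by their whole reference transcripts was 14 bases. The *Adcy9* transcript compared has 4974 bases, against a deposited length of 7632. *Pde3a*, which encodes the phosphodiesterase that lowers oocyte cAMP when meiosis resumes, had 7.55 FPKM in *Btg4*-depleted oocytes and 13.3 FPKM in control oocytes, a log2 ratio of -0.59. The deposited length of *Pde3a* was 4205 bases, against 12302 bases in the closest reference transcript, and its FPKM on the longer form was not computed.

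The 2 PKA subunits among the members differed in direction. *Prkar1a*, which encodes the type I alpha regulatory subunit, had 58.2 FPKM in *Btg4*-depleted oocytes and 47.0 FPKM in control oocytes, a log2 ratio of 0.46, and 65.6% of all measured genes had a ratio at or below it. *Prkaca*, which encodes the alpha catalytic subunit, had 2.51 FPKM in *Btg4*-depleted oocytes and 7.76 FPKM in control oocytes, a log2 ratio of -1.20, with 6.00% of all measured genes at or below it. The estimated fragments of *Prkaca* were 44.3 per library in *Btg4*-depleted oocytes and 137.1 in control oocytes, fewer than for any other measured member in either group. Within a group the *Prkar1a* to *Prkaca* ratio was 23.2 in *Btg4*-depleted oocytes and 6.05 in control oocytes, and with 1 FPKM added to both genes it was 16.9 in *Btg4*-depleted oocytes and 5.48 in control oocytes.

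The other PKA subunits were lower in *Btg4*-depleted oocytes. The beta catalytic subunit *Prkacb* had 0.133 FPKM in *Btg4*-depleted oocytes, about 4.39 fragments per library, and 3.40 FPKM in control oocytes (log2 ratio -1.94). The type II alpha regulatory subunit *Prkar2a* had 12.4 FPKM in *Btg4*-depleted oocytes and 47.1 FPKM in control oocytes (-1.69). The type II beta regulatory subunit *Prkar2b*, named after its values were seen, had 7.64 FPKM in *Btg4*-depleted oocytes and 16.2 FPKM in control oocytes (-0.85). Summed over the measured subunits, a ratio also chosen after the values were seen, regulatory subunits stood at 78.2 FPKM in *Btg4*-depleted oocytes and 110.3 FPKM in control oocytes, and catalytic subunits at 2.64 FPKM in *Btg4*-depleted oocytes and 11.2 FPKM in control oocytes. The regulatory to catalytic ratio was then 29.6 in *Btg4*-depleted oocytes and 9.88 in control oocytes. With 1 FPKM added to both sums it was 21.7 in *Btg4*-depleted oocytes and 9.15 in control oocytes. These are ratios of RNA and not of protein. Of 5 measured PKA subunits 3 were at least 2-fold lower and 0 higher, beside 11.7% lower and 19.8% higher over all measured genes, and at a minimum of 5 FPKM, which *Prkacb* does not reach, 2 were lower.

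**Figure D2:**
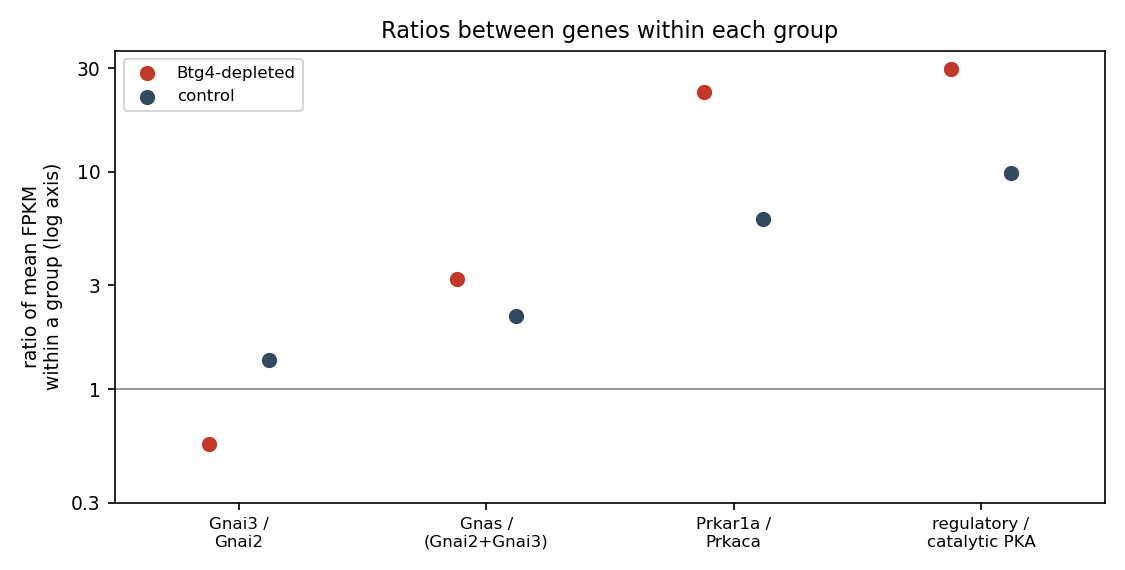
Ratios of mean FPKM between genes of the same group (log axis), *Btg4*-depleted at the left and control at the right of each pair. Regulatory PKA is *Prkar1a*, *Prkar2a* and *Prkar2b*, and catalytic PKA is *Prkaca* and *Prkacb*. The *Gnai3* to *Gnai2* ratio lies below 1 in *Btg4*-depleted oocytes and above 1 in control oocytes, and the regulatory to catalytic ratios of PKA are higher in *Btg4*-depleted oocytes. Points come from group means and have no error bars.

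The oligo(dT) primer used for the cDNA starts at the 3′ end of a transcript, and so the ends of the members' reference transcripts are shown. They come from GENCODE M21 on GRCm38, not from the build of the deposited files, and were matched by gene identifier and closest length. For 7 of the 10 genes the match was within 10% of the deposited length, and for *Gpr3*, *Adcy9* and *Pde3a* it was not. Each run below is up to 30 bases of the 3′ UTR near the end of the last exon, 5′ to 3′, for the inhibitory G protein and PKA genes the ratios turn on. The closest *Gnas* transcript has 762 coding bases, against 1068 in *Gnai2*, and so is not the transcript of the stimulatory alpha subunit, and its end is not shown. Capitals mark a polyadenylation hexamer (AATAAA or ATTAAA) or, in the first *Gnai2* run, a cytoplasmic polyadenylation element (CPE), TTTTAT. In the *Prkaca* run AATAAA is marked again at the very end of the transcript.
*Gnai2* (chr9:107614125-107635367, minus strand), CPE: catgTTTTATggaattgttcacatgatttg
*Gnai2*, hexamer: aaatAATAAAatgtagaaagaaaacaccaa
*Gnai3* (chr3:108107280-108146146, minus strand), hexamer: gttaATTAAAaatagaagttcttcacttct
*Prkar1a* (chr11:109650921-109669656, plus strand), hexamer: acagAATAAAaaagatgaaataatttaaat
*Prkaca* (chr8:83972993-83996443, plus strand), hexamer: attaccAATAAAgttttgttttaaAATAAA

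All 7 genes with a matching length, counting *Gnas* by this transcript, had a hexamer in the last 50 bases, as did 82.4% of 7155 measured genes with such a match. A CPE, TTTTAT or TTTTAAT on the transcript strand in the last 150 bases, was found in 2 of the 7, *Gnai2* and *Adcy3*, and in 27.3% of the 7155 genes. In *Adcy3* the CPE overlaps the hexamer. Over these 7155 genes the median log2 ratio was -0.46 for 1956 genes with a CPE and 0.04 for 5199 genes without it. The trend of the ratio on transcript length was not removed here, and its part in this difference was not tested. *Gnai2* (log2 ratio -0.82) has a CPE and AATAAA, and *Gnai3* (-2.05) has ATTAAA and no CPE in these windows, so in this pair the gene with the CPE had the higher ratio. *Prkar1a* and *Prkaca*, with log2 ratios of 0.46 and -1.20, both have AATAAA and no CPE in these windows. The 3′ UTR is 2054 bases long in *Prkar1a*, 2056 in *Gnai3*, 997 in *Gnai2* and 1026 in *Prkaca*. These are letters in a reference transcript, and a match is not a site known to be used in these oocytes.

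The log2 ratio of all measured genes depended on transcript length, with lower ratios at greater length. The 8 members span 1501 bases (*Gnas*) to 7632 bases (*Adcy9*). With the trend removed, 4 of the 8 were at least 2-fold lower, against 2 without this step, since *Gnas* then stood at -1.29 and *Gnai2* at -1.02 beside *Gnai3* at -2.01 and *Prkaca* at -1.38. *Prkar1a* stood at 0.51, *Gpr3* at -0.77 and *Pde3a* at -0.41. *Gnai3* and *Prkar1a* have nearly the same deposited length, 3294 and 3323 bases, and lie on opposite sides of the trend.

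**Figure D3:**
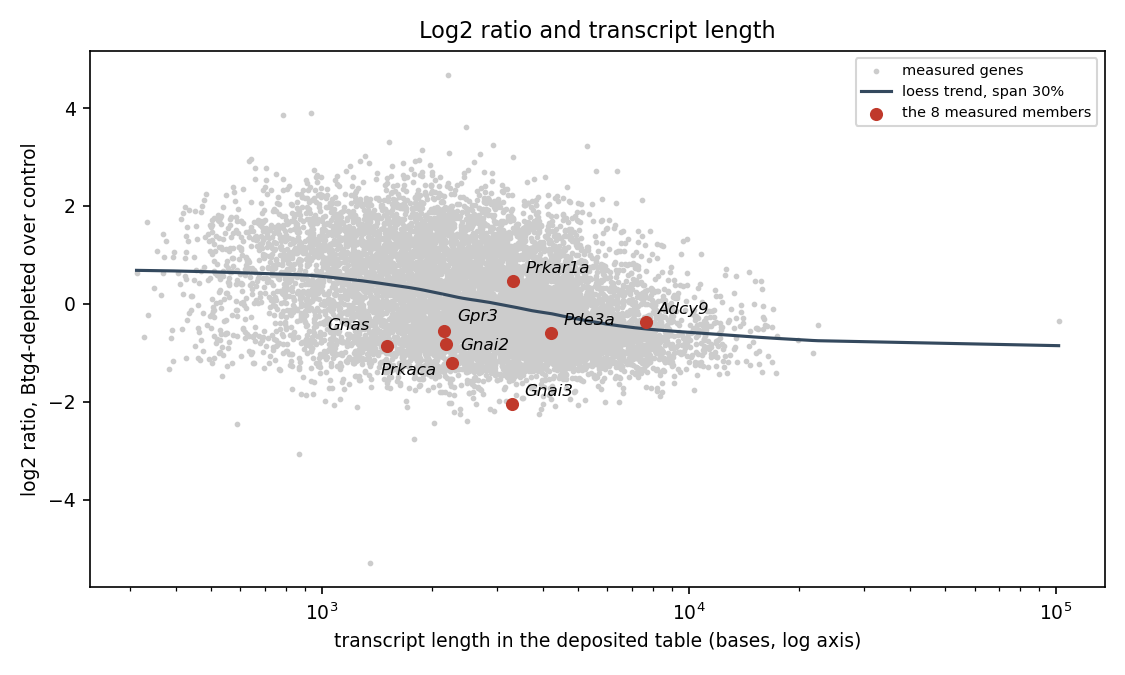
Log2 ratio (*Btg4*-depleted over control) of the 10012 measured genes against the transcript length of the deposited table (log axis), with a loess trend of span 30%. The 8 measured members are in red. *Prkar1a* and *Adcy9* lie above the trend, and the other 6 lie below it.

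**Figure D4:**
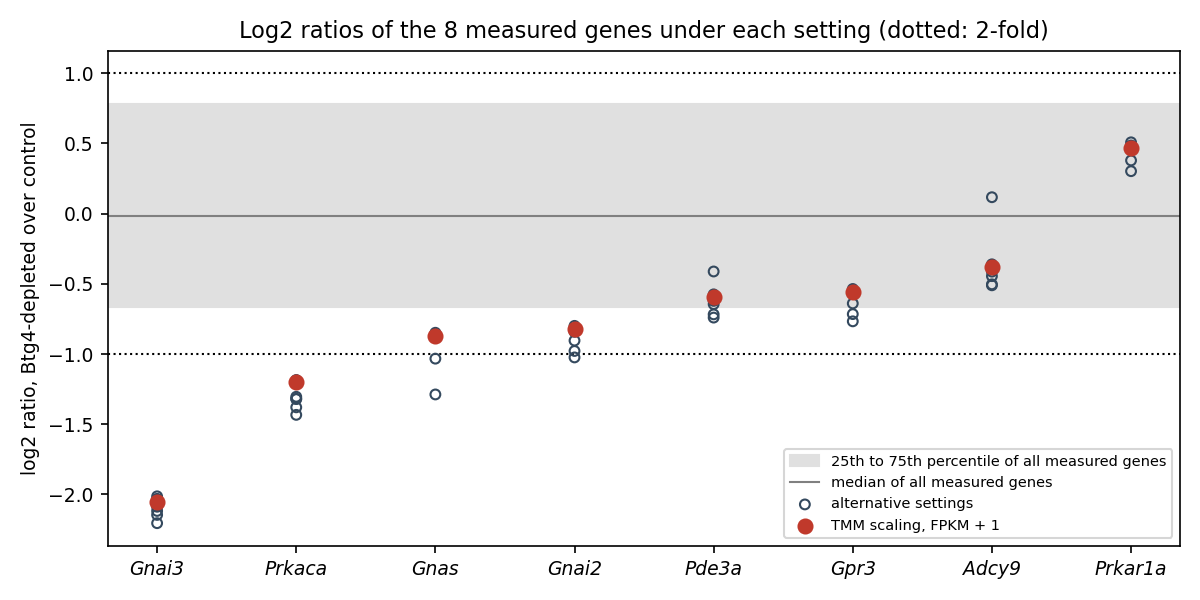
Log2 ratios (*Btg4*-depleted over control) of the 8 measured members, with red points for TMM scaling and FPKM + 1 and open points for the alternative settings. The grey band spans the 25th to 75th percentile of all measured genes, -0.66 to 0.78, and dotted lines mark 2-fold. *Gnai3* and *Prkaca* lie below the lower dotted line under every setting shown, and *Adcy9* crosses 0 once. A change of the filter cannot move a ratio, so those open points coincide with the red ones.

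Around the members, the other genes of the pathway stood on both sides of 0. Of 133 such genes in 13 lists 109 were listed and 72 were measured. Among the 72, 11 were at least 2-fold higher (15.3%) and 10 at least 2-fold lower (13.9%), and their median log2 ratio was -0.35, against 19.8%, 11.7% and -0.02 over all measured genes. These shares are near those of all measured genes and are no result about the pathway, and no list was tested.

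Of 11 measured G protein alpha subunits, 10 had a ratio below 0, with a median of -0.57. *Gnai3* was at least 2-fold lower, and with the length trend removed, without scaling or at a pseudocount of 0.1 there were 3 such genes. *Gnat2*, the alpha subunit of cone transducin, was the exception, with 11.4 FPKM in *Btg4*-depleted oocytes and 2.31 FPKM in control oocytes (log2 ratio 2.06). Of 8 measured beta and gamma subunits, 3 were at least 2-fold higher and 2 lower. The gamma subunit *Gng3* had 112.9 FPKM in *Btg4*-depleted oocytes and 33.1 FPKM in control oocytes (1.90). *Gnb5*, a beta subunit that pairs with RGS proteins, had 8.34 FPKM in *Btg4*-depleted oocytes and 1.71 FPKM in control oocytes (1.93). The gamma subunit *Gng10* had 4.13 FPKM in *Btg4*-depleted oocytes and 1.79 FPKM in control oocytes (1.01, but 0.88 without scaling and 0.47 with the length trend removed). Both genes that were lower encode beta subunits, *Gnb1* at 4.93 FPKM in *Btg4*-depleted oocytes and 14.7 FPKM in control oocytes (-1.27), and *Gnb2* at 5.95 FPKM in *Btg4*-depleted oocytes and 14.4 FPKM in control oocytes (-1.003, but -0.98 with median of ratios scaling).

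Of 10 adenylyl cyclases 8 were listed and 2 were measured, *Adcy9* and, named after its values were seen, *Adcy5*, with 5.47 FPKM in *Btg4*-depleted oocytes and 4.74 FPKM in control oocytes (log2 ratio 0.31). Of 11 measured phosphodiesterases, 3 were at least 2-fold higher and 2 lower. With the length trend removed 2 were higher and 0 lower, and at a minimum of 5 FPKM 1 was higher and 1 lower. *Pde3b*, the closest relative of *Pde3a*, had 4.36 FPKM in *Btg4*-depleted oocytes and 13.0 FPKM in control oocytes (-1.25, and -0.92 with the length trend removed). The phosphodiesterases activated by calcium and calmodulin differed among themselves. *Pde1b* had 19.4 FPKM in *Btg4*-depleted oocytes and 7.52 FPKM in control oocytes (1.41), and *Pde1a* had 3.54 FPKM in *Btg4*-depleted oocytes and 1.42 FPKM in control oocytes (1.04, and 0.66 with the length trend removed). *Pde1c* had 1.42 FPKM in *Btg4*-depleted oocytes and 4.43 FPKM in control oocytes (-1.07, and -0.65 with the length trend removed). *Pde9a*, which degrades cGMP, had 3.87 FPKM in *Btg4*-depleted oocytes and 0.367 FPKM in control oocytes (1.96), where the control level is about 5.92 fragments per library.

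Downstream and around PKA, the PKA inhibitor peptide *Pkig* had 26.4 FPKM in *Btg4*-depleted oocytes and 10.9 FPKM in control oocytes (log2 ratio 1.36). This transcript is short, and with the length trend removed its log2 ratio was 0.78. Of 10 measured A-kinase anchoring proteins, which tether PKA within the cell, 9 had a ratio below 0, with a median of -0.62. *Akap13* was at least 2-fold lower, with 6.33 FPKM in *Btg4*-depleted oocytes and 15.8 FPKM in control oocytes (-1.06), but stood at -0.44 with the length trend removed. The number of these 10 genes at least 2-fold lower ran between 0 with the length trend removed and 3 without scaling or with quantile normalization. Of 9 measured genes of the CDK1 switch only *Cdk1*, the kinase that drives entry into M phase, was past 2-fold, with 24.4 FPKM in *Btg4*-depleted oocytes and 5.68 FPKM in control oocytes (2.08), and the median of these 9 was 0.05. At a pseudocount of 0.1 there were 2 higher, and with the length trend removed 1 was lower. None of 6 other cAMP effectors and none of 3 receptor kinases, arrestins and chaperones was past 2-fold, except 1 of the 3 at a pseudocount of 0.1, their medians being -0.15 and 0.49.

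Among 6 measured RGS proteins, which speed up GTP hydrolysis by G alpha subunits, *Rgs10* had 57.4 FPKM in *Btg4*-depleted oocytes and 18.7 FPKM in control oocytes (log2 ratio 1.73, and 1.12 with the length trend removed). *Rgs3* had 15.9 FPKM in *Btg4*-depleted oocytes and 7.74 FPKM in control oocytes (1.11, but 0.96 without scaling and 0.98 with quantile normalization). *Rgs17* had 20.8 FPKM in *Btg4*-depleted oocytes and 48.0 FPKM in control oocytes (-1.01, but -0.99 with median of ratios scaling and -0.49 with the length trend removed). Insulin and Akt signalling acts on PDE3A, and all 7 measured genes of this list had a ratio below 0, with a median of -0.48. *Akt1*, a kinase that phosphorylates PDE3A, had 13.0 FPKM in *Btg4*-depleted oocytes and 52.0 FPKM in control oocytes (-1.76). *Pdpk1*, the kinase that activates Akt, had 26.7 FPKM in *Btg4*-depleted oocytes and 87.5 FPKM in control oocytes (-1.52).

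**Figure D5:**
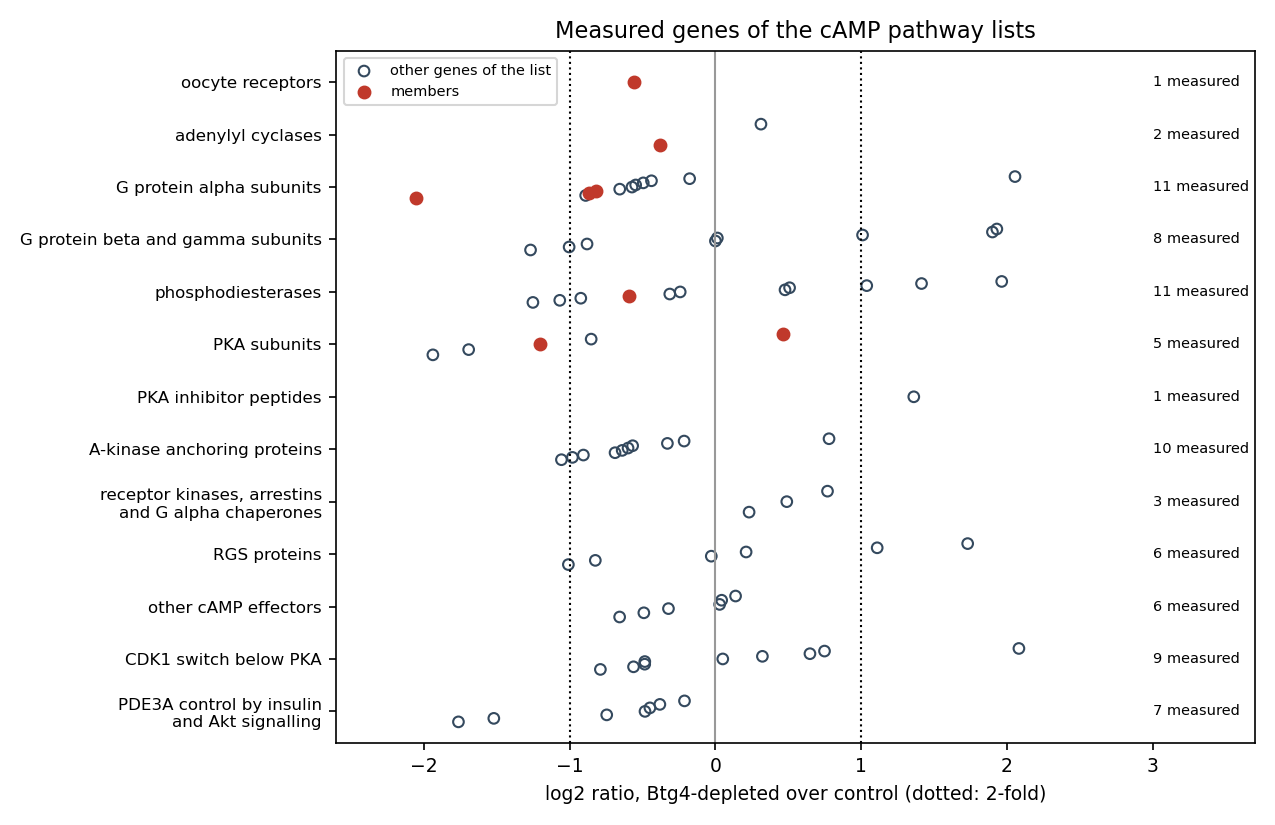
Log2 ratios (*Btg4*-depleted over control) of the measured genes in 13 lists of the cAMP pathway, with the members filled in red and the other genes open. Dotted lines mark 2-fold, and the number of measured genes stands at the right. Each point is a ratio of group means and has no error bar. *Gnai3* is the lowest G protein alpha subunit, and *Prkar1a* is the only PKA subunit above 0.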

How the data were processed

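RNA from 50 oocytes per library was made into cDNA with a SMARTer kit (about 10 ng of total RNA, inserts of about 200 base pairs). The authors' processing notes name BWA and mm9, and for the counting program and annotation none is given in the sources used here. The authors deposited a table of FPKM as means over the 3 libraries of a group (multiplied by 3, 100% of these means were whole hundredths, to within 0.001 of a hundredth), with a transcript length per gene. It also holds the authors' log2 ratio, direction and probability, and their DESeq2 and NOISeq lists hold fold changes, scores and p-values. None of these was used, except the mean normalized count of the DESeq2 lists, a signal the authors computed over all 6 libraries, which served only to estimate depth.

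Samples were grouped by their labels. Log2 ratios of FPKM + 1 were computed after TMM scaling (30% of ratios and 5% of levels trimmed on each side) on 10012 genes whose mean FPKM reached 1. With group means only, no test, SD or p-value was possible. The alternatives were no scaling, median of ratios, quantile normalization, a pseudocount of 0.1 or 0.5, a filter at 5 FPKM or none, and subtraction of a loess trend on log2 length (span 30%). Named are the members, *Btg4*, pathway genes past 2-fold and markers at 1 FPKM or more in either group, other names being marked. The members and lists were chosen with earlier results of these data known. The computations were tested on simulated data. Scripts ran on Python 3.11.15 with statsmodels 0.14.6, pandas 2.3.3 and numpy 2.4.6.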

Additional observations from a re-analysis of the deposited data

How the results depend on the processing

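The direction of 70 of 71 values of single members under the alternatives was that of the main setting, the exception being *Adcy9* with the length trend removed (0.12). A change of the filter leaves the ratio of a gene as it is. The values with no filter or at 5 FPKM therefore match the main setting by construction. *Gnai3* stayed between -2.20 and -2.01, *Prkaca* between -1.43 and -1.18 and *Prkar1a* between 0.30 and 0.51. The median log2 ratio of the members was -0.86 without scaling, -0.90 with the length trend removed, -0.58 with no filter, where *Gpr12* and *Adcy3* enter, and -0.82 at a mean FPKM of at least 5. With the length trend removed 4 members were at least 2-fold lower, and without scaling *Gnas* passed as well (-1.03). The 0.1 on the median and the 1.5-fold on genes that marked these moves were set after the main values were seen, as there is no spread between libraries.

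Without scaling the median of all measured genes was -0.15, and 49.1% of the genes past 2-fold were higher, against 62.9% with TMM scaling, 54.0% with quantile normalization and 54.8% with the length trend removed, so a ratio is relative to the other transcripts and not to RNA per oocyte. Splitting the TMM factor between both groups, an alternative added after the data were seen, gave 1953 higher and 1140 lower genes, against 1979 and 1169. Of the 21 other pathway genes past 2-fold, all kept their direction under each alternative that gave them a value, and 5 gave none at a minimum of 5 FPKM. Here too the filter settings could not change the ratio of a gene. Past 2-fold under each of the alternatives were 10, and *Prkacb* and *Pde9a* under each but that minimum. The other 9 (*Gng10*, *Gnb2*, *Pde1a*, *Pde1c*, *Pde3b*, *Pkig*, *Akap13*, *Rgs3* and *Rgs17*) did not stay past 2-fold. *Prkacb* moved to -3.81 at a pseudocount of 0.1. No paired analysis was possible because the deposited table holds group means only, and leaving out a library was not possible for the same reason.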
